A study of Mus musculus with 9 samples.

Results

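The 9 genes described here encode the receptors for glucocorticoids and mineralocorticoids and the proteins that supply, fold, and assist them: Nr3c1, Nr3c2, Hsd11b1, Fkbp4, Ncoa1, Ncoa2, Ncoa3, Nrip1, and Ncor1. They were chosen by role from the 50559 genes listed in each count table, and all 9 were among the 16618 genes left for testing by a filter on low counts. RNA was sequenced from CD45+CD11b+ cells (leukocytes of the myeloid lineage) sorted from quadriceps of *mdx* mice, a model of Duchenne muscular dystrophy without dystrophin. All groups carried the *mdx* mutation and were 4.5 weeks old at collection, after 7 days of drinking water with vehicle, the mineralocorticoid receptor (MR) antagonist spironolactone, or the glucocorticoid receptor (GR) agonist prednisolone. Each group had 3 libraries, and each library held cells pooled from 3 mice of a group that included both sexes, so that n counts pools and not animals. The sexes within each pool are not given, wild-type cells are not analysed here, and the sort did not separate live from dead cells.

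Nr3c1 encodes GR and Nr3c2 encodes MR. Both are ligand-activated transcription factors that wait in the cytoplasm in a complex with heat shock protein 90 and its co-chaperones, move to the nucleus on binding a steroid, and regulate overlapping sets of genes. In rodents both receptors bind corticosterone, and prednisolone is a ligand of GR with some affinity for MR. Hsd11b1 encodes the reductase that turns inactive keto-steroids into the active hormone within the cell. At the promoter, receptors recruit coactivators such as the steroid receptor coactivator family or corepressors such as NCOR1, which bring histone acetylases or deacetylases.

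Between 31469815 and 32943512 counts fell on genes in each library. Nr3c2 had 2 to 30 counts and Hsd11b1 42 to 278 counts in a library, and each of the other 7 genes had at least 644. Levels are given as CPM, the count of a gene scaled to a common library total and normalized between libraries by the trimmed mean of M values (TMM). Transcripts of the sort markers were present in all libraries, with Itgam (CD11b) at 978 to 1486 CPM and Ptprc (CD45) at 545 to 660 CPM. All 10 macrophage markers had counts in every library, and their sum was 18848 to 21561 CPM. The sum of 10 neutrophil markers was less even. It was 738 and 981 CPM in vehicle libraries 1 and 2 and 4792 CPM in vehicle library 3. Spironolactone libraries 1 and 2 were at 1354 and 1529 CPM and library 3 at 3592 CPM, and the prednisolone libraries were at 763 to 974 CPM. These 2 libraries stood apart, and results that rest on them are given with and without them. In mixed cells, fewer cells of a type and less RNA per cell cannot be told apart.

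Levels were first ordered per length, as TPM, which scales the counts of a gene by its length and the library total and was computed from exon lengths of the annotation. In vehicle-treated cells, the coactivator Ncoa3 was highest (147 ± 29.6 TPM, SD, n = 3), followed by the co-chaperone Fkbp4 (83.5 ± 1.16 TPM), the receptor Nr3c1 (52.9 ± 2.51 TPM), and the corepressor Ncor1 (51.5 ± 11.03 TPM). Ncoa1 (29.4 ± 4.47 TPM), Ncoa2 (23.2 ± 5.91 TPM), and Nrip1 (9.21 ± 2.55 TPM) came next. Hsd11b1 (3.37 ± 3.50 TPM) and Nr3c2 (0.205 ± 0.187 TPM) were lowest. Within vehicle, the ranges of Nr3c1 and Ncor1, of Ncoa1 and Ncoa2, and of Nrip1 and Hsd11b1 overlapped, and the other neighbours in this order did not. The order of the group means was the same with spironolactone, and with prednisolone Ncor1 (55.6 ± 0.826 TPM) and Nr3c1 (55.3 ± 2.77 TPM) changed places by less than their spread. Ncoa3 stood at percentile 93.2 and Nr3c1 at percentile 81.6 of the tested genes by vehicle TPM, whereas Hsd11b1 stood at percentile 28.7 and Nr3c2 at percentile 2.57.

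**Figure D1:**
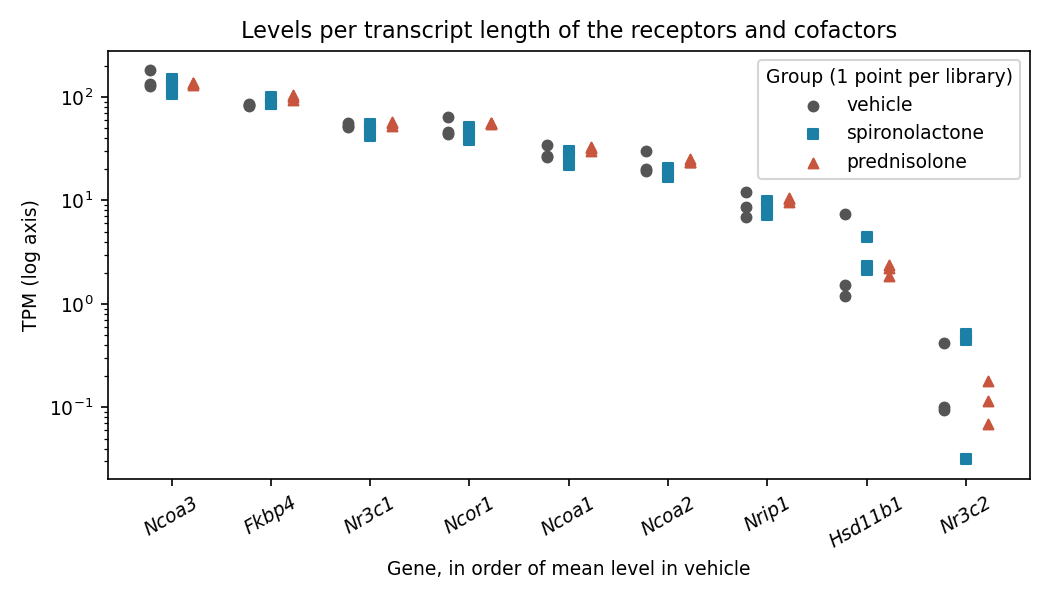
TPM of the 9 genes on a log axis, with 1 point per library and the groups side by side (vehicle, circles; spironolactone, squares; prednisolone, triangles), ordered by the vehicle mean. Ncoa3 lies highest in all groups (106 to 181 TPM), and Nr3c2 lies lowest (0.0315 to 0.510 TPM) with the widest spread.

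GR transcript was plentiful. Nr3c1 (chr18:39543598-39652474, minus strand, GRCm39) was at 93.8, 93.1, and 95.7 CPM in the vehicle libraries. Spironolactone libraries were at 94.0, 88.0, and 78.2 CPM, and prednisolone libraries at 97.0, 85.9, and 95.8 CPM. The vehicle libraries differed by no more than counting error (chi-square per degree of freedom 0.605), whereas spironolactone (23.4) and prednisolone (13.1) libraries differed by more, and the treated groups overlapped vehicle. With prednisolone compared with vehicle, the log2 fold change was -0.02 ± 0.09 (SE; adjusted p = 0.949, quasi-likelihood test of edgeR with Benjamini-Hochberg adjustment over all tested genes). Its 95% interval ran from 13.8% lower to 12.8% higher. With spironolactone, the log2 fold change was -0.12 ± 0.09 (edgeR adjusted p = 0.741), with an interval from 19.5% lower to 5.31% higher. Without spironolactone library 3, which was the lowest of the 9, this value was -0.05. Between the drugs, Nr3c1 differed by -0.10 on the log2 scale, spironolactone minus prednisolone, with an interval from 18.4% lower to 6.78% higher. This value was -0.031 without spironolactone library 3, -0.16 without spironolactone library 1, and -0.15 without prednisolone library 2.

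MR transcript was near the limit of detection. Nr3c2 (chr8:77625576-77971863, plus strand, GRCm39) had 6, 6, and 27 counts in the vehicle libraries, 30, 28, and 2 counts in the spironolactone libraries, and 7, 4, and 11 counts in the prednisolone libraries. Vehicle library 3 and spironolactone libraries 1 and 2 thus stood above the other 6 libraries, and groups overlapped. The highest library, spironolactone 1, was at 0.949 CPM (exact Poisson 95% interval 0.640 to 1.36), and the lowest, spironolactone 3, at 0.0633 CPM (0.00767 to 0.229), intervals that cover counting error only. Counts varied by more than counting error within vehicle (chi-square per degree of freedom 11.5) and within spironolactone (12.2), and the value within prednisolone was 1.57. The log2 fold change was -0.86 ± 0.88 with prednisolone (edgeR adjusted p = 0.731) and 0.64 ± 0.82 with spironolactone (edgeR adjusted p = 0.878). The 95% interval for spironolactone compared with prednisolone ran from 0.778-fold to 10.3-fold (edgeR adjusted p = 0.331). Without vehicle library 3, the prednisolone value turned to 0.26 and the spironolactone value was 1.75. The spironolactone value was 0.30 and 0.31 without vehicle libraries 1 and 2. It was 0.23, 0.32, and 1.18 without spironolactone libraries 1, 2, and 3. Without both neutrophil-rich libraries the values were 0.26 with prednisolone, 2.28 with spironolactone, and 2.03 between the drugs, and none of these passed the test.

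The ratio of Nr3c1 to Nr3c2 by TPM was above 100 in each library. It was 558, 540, and 124 in vehicle, 108, 108, and 1340 in spironolactone, and 495, 763, and 319 in prednisolone libraries, with a median of 495. The denominator set these differences, since Nr3c1 itself varied by 1.24-fold between its lowest and highest library by CPM and Nr3c2 by 14.99-fold.

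The reductase gene Hsd11b1 (chr1:192903918-192946489, minus strand, GRCm39) was low in most libraries and high in those rich in neutrophil transcripts. It was at 1.28, 1.75, and 8.66 CPM in vehicle, 2.50, 2.47, and 5.22 CPM in spironolactone, and 2.03, 2.51, and 2.35 CPM in prednisolone libraries. Vehicle library 3 and spironolactone library 3 were the highest of the 9, and they also had the highest neutrophil sums. The prednisolone libraries differed by no more than counting error (chi-square per degree of freedom 0.823, against 142 in vehicle). The log2 fold change was -0.76 ± 0.67 with prednisolone (edgeR adjusted p = 0.680) and -0.20 ± 0.66 with spironolactone (edgeR adjusted p = 0.964). Without vehicle library 3 these values turned to 0.61 and 1.16, and without both neutrophil-rich libraries they were 0.61 and 0.71, and none passed the test. The 3 genes most like Hsd11b1, by Pearson correlation of log2 CPM over the 9 libraries among 13240 genes, were Lcn2 (0.96), S100a9 (0.96), and S100a8 (0.94), which encode granule and calcium-binding proteins abundant in neutrophils. Over the 7 libraries without both neutrophil-rich ones, the correlations were 0.87, 0.84, and 0.75. S100a8 and S100a9 are also members of the neutrophil list. Whether neutrophils carried the Hsd11b1 transcript was not tested.

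**Figure D2:**
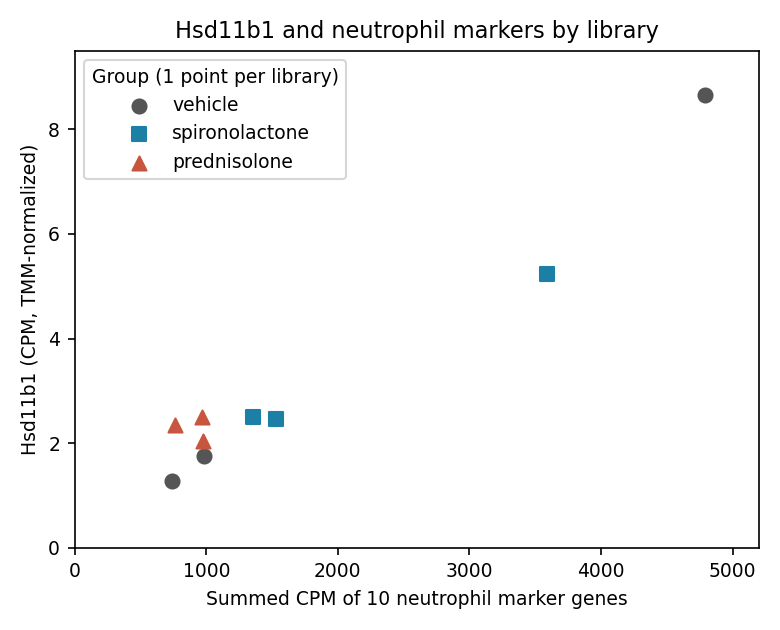
Hsd11b1 level (CPM, vertical axis) against the summed CPM of 10 neutrophil marker genes (horizontal axis), with 1 point per library and the groups by colour and shape. Vehicle library 3 (8.66 CPM) and spironolactone library 3 (5.22 CPM) lie apart at the upper right, and the other 7 libraries lie between 1.28 and 2.51 CPM.

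Likeness was also measured for the receptors. Nr3c1 was most like Ascc3 (Pearson correlation 0.96), Cdc42ep4 (0.95), and Slc16a10 (0.94) over the 9 libraries, and each of these was lowest in spironolactone library 3. Over the 7 libraries without both neutrophil-rich ones, these correlations were 0.87, 0.85, and 0.87. Nr3c2 was most like Gvin2 (0.94), Casp8 (0.91), and Gm26797 (0.90), with 0.93, 0.92, and 0.96 over those 7 libraries. These values describe 9 libraries that share their depth and sort, and Nr3c2 rests on few counts.

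Hsd11b1 and Nr3c2 varied most between libraries, and the 250 bases before their start sites are shown for that reason (RefSeq, GRCm38.p6, 5′ to 3′ on the strand of the gene). RefSeq windows were matched for Hsd11b1, Fkbp4, Nr3c2, Ncor1, Ncoa1, and Nrip1, in 8 windows. They were not matched for Nr3c1, Ncoa2, and Ncoa3. Both strands were searched for a glucocorticoid response element (GNACANNNTGTNC) and a C/EBP site (TTGCNNAA), the motif of a factor family active in myeloid cells (no match of one overlapped the other). Capitals mark the C/EBP match of Nr3c2, 245 to 238 bases before the start.
Nr3c2, chr8:76902080-76902329, plus strand: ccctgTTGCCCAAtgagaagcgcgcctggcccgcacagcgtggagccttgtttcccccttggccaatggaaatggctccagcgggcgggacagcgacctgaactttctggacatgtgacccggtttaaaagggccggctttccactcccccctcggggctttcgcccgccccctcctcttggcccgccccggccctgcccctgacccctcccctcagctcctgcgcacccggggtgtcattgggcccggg
Hsd11b1, chr1:193242361-193242610, minus strand: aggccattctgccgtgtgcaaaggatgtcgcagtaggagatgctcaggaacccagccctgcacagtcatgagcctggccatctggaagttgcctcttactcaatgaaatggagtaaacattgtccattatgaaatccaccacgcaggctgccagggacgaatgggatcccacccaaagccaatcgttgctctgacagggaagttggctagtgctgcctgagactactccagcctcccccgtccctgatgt
The response element matched 0 of the 8 windows, and it matched 0.387% of 32851 windows of this length. The C/EBP motif matched 2 of the 8, in Nr3c2 and in 1 of the Ncor1 windows, and 9.56% of all windows. A match describes letters and not binding, and the windows did not include distant enhancers.

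Fkbp4 encodes the co-chaperone FKBP52, which favours hormone binding by the receptor and its transport to the nucleus. Vehicle libraries were at 66.0, 73.6, and 73.2 CPM, spironolactone libraries at 70.1, 74.2, and 87.3 CPM, and prednisolone libraries at 81.0, 82.0, and 73.8 CPM. All prednisolone libraries lay above all vehicle libraries (lowest 73.8 against highest 73.6 CPM). The log2 fold change with prednisolone was 0.15 ± 0.10 (edgeR adjusted p = 0.529). It was 0.12 ± 0.10 with spironolactone (edgeR adjusted p = 0.761) and 0.02 without spironolactone library 3, the highest of the 9. This spironolactone value was 0.071 without vehicle library 1 and 0.19 without spironolactone library 1.

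The coactivators Ncoa1, Ncoa2, and Ncoa3 encode the steroid receptor coactivator family, which binds the activated receptor and recruits histone acetyltransferases. Ncoa1 was at 81.9, 69.8, and 68.9 CPM in vehicle, 72.4, 69.4, and 57.0 CPM in spironolactone, and 72.1, 74.5, and 77.0 CPM in prednisolone libraries. Its groups overlapped in each comparison, with a log2 fold change of 0.02 ± 0.10 with prednisolone and -0.15 ± 0.10 with spironolactone (edgeR adjusted p = 0.956 and 0.712). The spironolactone value was -0.066 without vehicle library 1 and -0.053 without spironolactone library 3. Ncoa2, whose product also assists GR in repressing inflammatory genes, was at 103, 75.9, and 72.7 CPM in vehicle and at 72.4, 73.5, and 63.6 CPM in spironolactone libraries. Prednisolone libraries were at 82.3, 79.7, and 85.4 CPM, all above those of spironolactone. The difference of spironolactone from vehicle was the only 1 of the 27 member tests with an unadjusted p under 0.05 (log2 fold change -0.27 ± 0.12, edgeR adjusted p = 0.526), and it shrank to -0.09 without vehicle library 1. Spironolactone compared with prednisolone gave -0.24 ± 0.12 (edgeR adjusted p = 0.262).

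Ncoa3 was at 326, 259, and 251 CPM in vehicle, 275, 250, and 210 CPM in spironolactone, and 248, 228, and 242 CPM in prednisolone libraries. Each prednisolone library lay below each vehicle library. The log2 fold change was -0.22 ± 0.12 (edgeR adjusted p = 0.445), and it was -0.09 without vehicle library 1. With spironolactone it was -0.19 ± 0.12 (edgeR adjusted p = 0.683), and it was -0.060 without vehicle library 1 and -0.087 without spironolactone library 3.

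The corepressors did not pass the test in any comparison. Nrip1 encodes RIP140, which binds liganded receptors and limits their activity, and was at 31.6, 24.9, and 20.1 CPM in vehicle libraries. It was at 26.7, 24.5, and 20.9 CPM in spironolactone and 27.9, 24.8, and 27.8 CPM in prednisolone libraries, and the groups overlapped in each comparison. Ncor1, a scaffold for histone deacetylase 3, was at 268, 200, and 211 CPM in vehicle, 215, 202, and 176 CPM in spironolactone, and 239, 223, and 231 CPM in prednisolone libraries. The spironolactone libraries lay below the prednisolone libraries, with a log2 fold change of -0.23 ± 0.11 (edgeR adjusted p = 0.263). Compared with vehicle, the log2 fold change of Ncor1 was 0.03 ± 0.11 with prednisolone and -0.19 ± 0.11 with spironolactone (edgeR adjusted p = 0.935 and 0.652). The spironolactone value was -0.057 without vehicle library 1 and -0.12 without spironolactone library 3, and the difference between the drugs was -0.15 without spironolactone library 3.

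**Figure D3:**
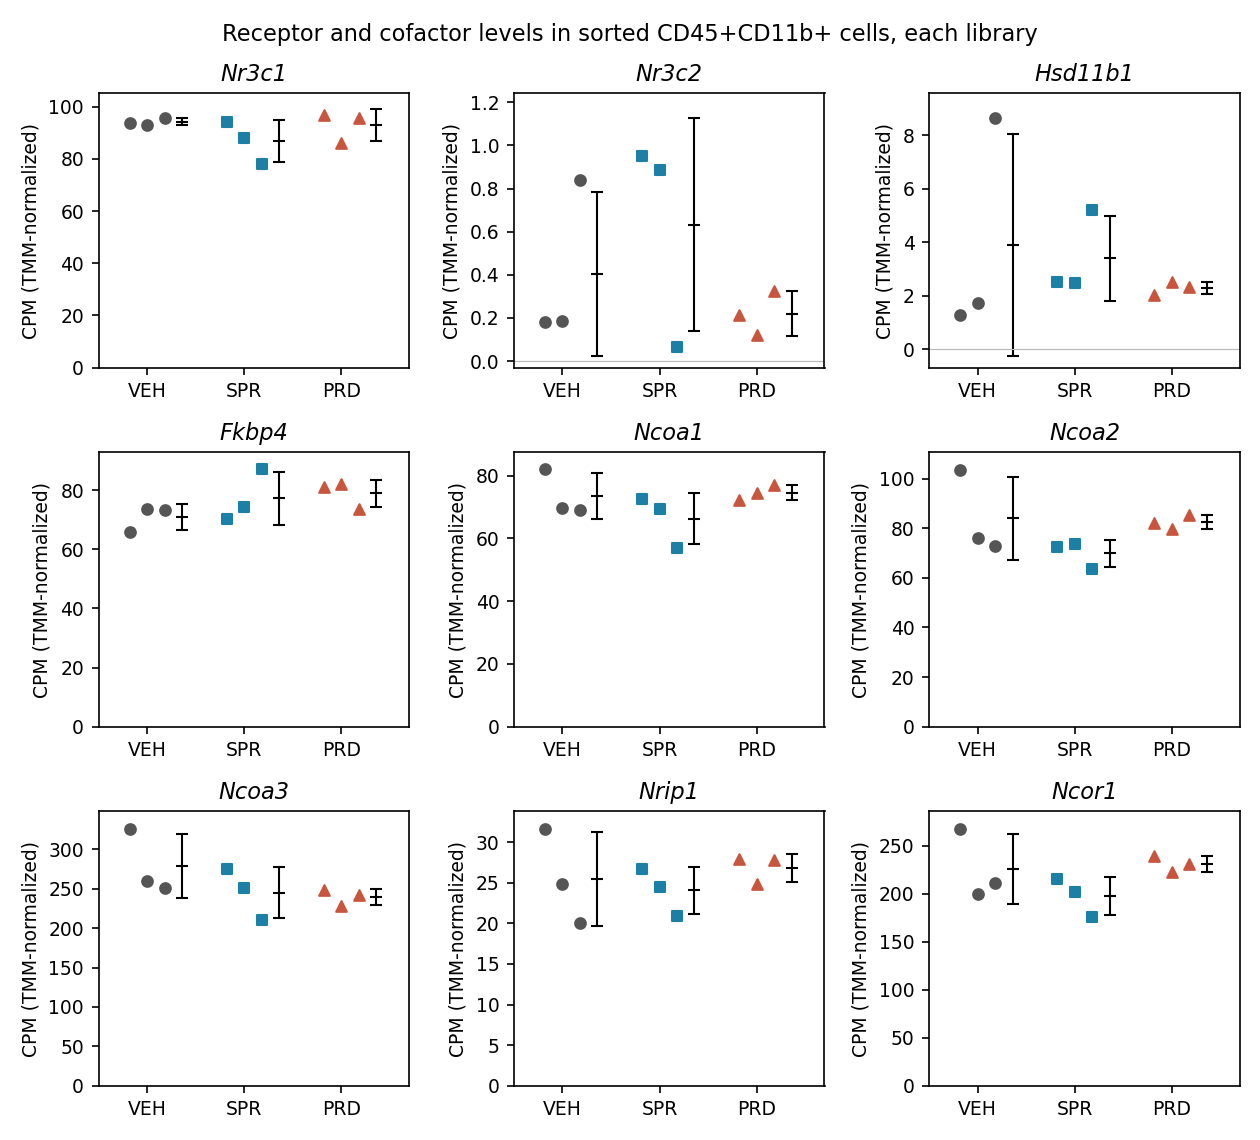
Level of each gene (CPM, vertical axes from 0 or just below) in each library, with groups on the horizontal axis (VEH, vehicle; SPR, spironolactone; PRD, prednisolone), points for libraries, and bars for the mean ± SD of 3 libraries. Groups overlap for most genes, vehicle library 1 (leftmost circle) is the highest point for Ncoa1, Ncoa2, Ncoa3, Nrip1, and Ncor1, and the SD of Hsd11b1 in vehicle exceeds its mean.

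Single libraries were at the extremes for several genes at a time. Of the 9 genes, vehicle library 1 was the highest library for Ncoa1, Ncoa2, Ncoa3, Nrip1, and Ncor1 and the lowest for Fkbp4 and Hsd11b1. Spironolactone library 3 was the lowest for Nr3c1, Nr3c2, Ncoa1, Ncoa2, Ncoa3, and Ncor1, the highest for Fkbp4, and the second highest for Hsd11b1. Vehicle library 1 also stood apart in the sum of 6 monocyte markers, at 1497 CPM beside 3077 and 2718 CPM in vehicle libraries 2 and 3, and the part of these markers in its coregulator values was not tested. The spread differed between groups and genes. The coefficient of variation of Ncoa2 was 3.46% in prednisolone and 20.03% in vehicle libraries, and that of Ncor1 was 3.51% and 16.1%. For Nr3c1 it was higher with prednisolone (6.55%) than with vehicle (1.41%), and for Fkbp4 it was 5.66% and 6.04%. For Fkbp4 and the 5 coregulators, 95% intervals reached from 27.9% lower (Ncoa3) to 31.2% higher (Nrip1) with prednisolone and from 30.5% lower (Ncoa2) to 25.8% higher (Fkbp4) with spironolactone. Spread and intervals rest on 3 pools per group, and the difference in spread was not tested.

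None of the 9 genes passed the edgeR test in any comparison, and the same count of 0 was found with DESeq2, with limma-voom, and without both neutrophil-rich libraries. Of all tested genes, 1.76% passed for prednisolone compared with vehicle, 0.0181% for spironolactone compared with vehicle, and 5.17% for spironolactone compared with prednisolone. A count of 0 of 9 is close to these shares and does not set the 9 genes apart. At an unadjusted p under 0.05, the counts were 0, 1, and 0 of the 9 genes, whereas the shares of all tested genes were 14.2%, 9.29%, and 22.5%. Groups did not overlap for 2 of 9 genes in the first comparison (Fkbp4 higher, Ncoa3 lower; 19.7% of all genes, with 10.4% higher and 9.27% lower), for 0 in the second (13.5%), and for 2 in the third (Ncoa2 and Ncor1 lower with spironolactone; 30.3%, with 15.2% lower). The median log2 fold change of the 9 genes was -0.02, -0.15, and -0.10 in the same order, beside -0.01, 9.0e-05, and 0.03 over all tested genes. Without single libraries the median of the 9 ranged from -0.049 to 0.10, from -0.20 to -0.053, and from -0.16 to -0.069. For spironolactone compared with vehicle it was -0.060 without vehicle library 1 and -0.053 without spironolactone library 3, and for prednisolone it turned to 0.10 without vehicle library 1 and to 0.022 without prednisolone library 2. The drug comparisons share their vehicle libraries, so that these values are not independent.

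**Figure D4:**
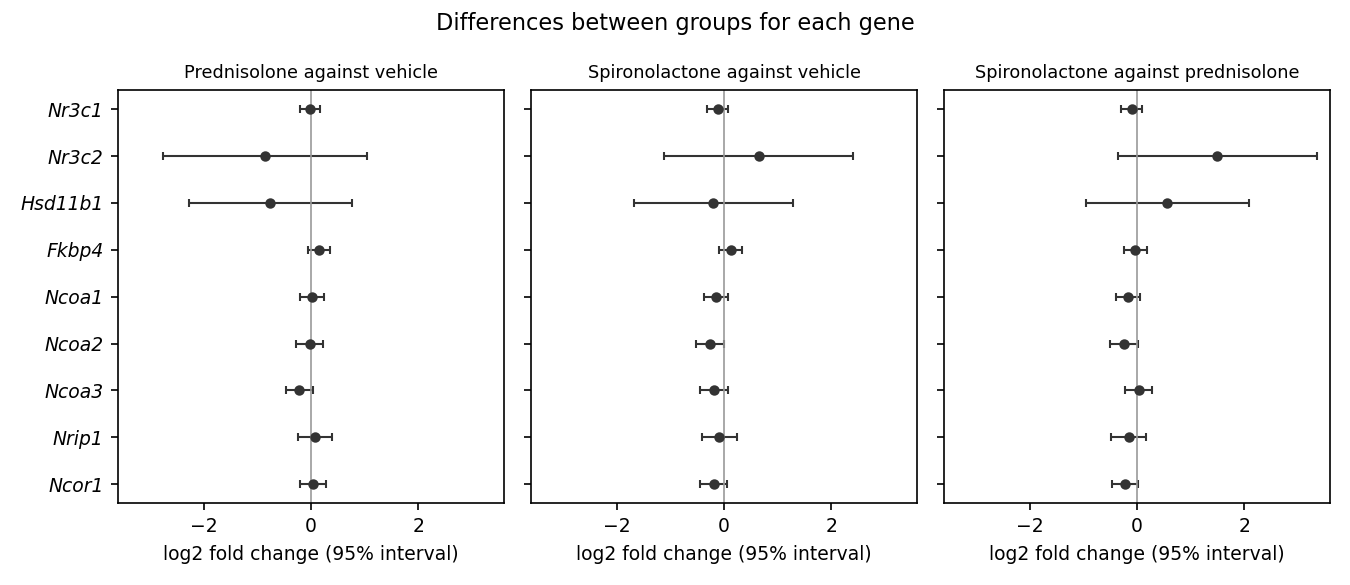
Log2 fold change of each gene with its 95% interval from edgeR (horizontal axes), in 3 panels for the comparisons named above each panel. The intervals of Nr3c2 and Hsd11b1 are several times as wide as those of the other 7 genes, and all intervals include 0 except that of Ncoa2 for spironolactone compared with vehicle (-0.53 to -0.01), which did not pass after adjustment.

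Other genes of these pathways were read from 6 lists chosen by role, with 71 genes in all, of which 64 were tested. With prednisolone compared with vehicle 2 of the 64 passed the edgeR test, with spironolactone 0 passed, and 3 differed between the drugs, beside the 1.76%, 0.0181%, and 5.17% of all tested genes. At an unadjusted p under 0.05 the counts were 12, 9, and 15 of the 64, beside 14.2%, 9.29%, and 22.5% of all tested genes. For spironolactone compared with vehicle, DESeq2 called 3 of the 64 (Fkbp5, Klf9, and Per1) and 293 genes in all, and limma-voom called 0 of the 64. Without both neutrophil-rich libraries the counts were 1 (Per1), 0, and 1 (Fkbp5), so that the calls of Abcb1b, Zbtb16, and Errfi1 given next were lost there (edgeR adjusted p = 0.0558 to 0.157). Their log2 fold changes in that fit were 0.37 for Abcb1b with prednisolone and, between the drugs, -0.46 for Abcb1b, 0.64 for Zbtb16, and -0.54 for Errfi1.

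Of the 6 lists, target genes that both receptors can induce had the largest median difference from vehicle with each drug. Per1, a clock gene with glucocorticoid response elements, was at 261, 209, and 264 CPM in vehicle, 127, 151, and 167 CPM in spironolactone, and 131, 104, and 80.3 CPM in prednisolone libraries. All treated libraries were below all vehicle libraries. Per1 fell with prednisolone by 1.22 ± 0.17 on the log2 scale (edgeR adjusted p = 0.00436), and it passed without each library in turn, with adjusted p up to 0.0373. With spironolactone its log2 fold change was -0.72 ± 0.16 (edgeR adjusted p = 0.156), a value called with DESeq2 (adjusted p = 0.00369) and not with limma-voom. Between the drugs, Per1 was not called in the filtered edgeR fit of all 9 libraries. DESeq2 called it higher with spironolactone than with prednisolone (log2 fold change 0.49, adjusted p = 0.0367). So did edgeR without a filter (0.48, adjusted p = 0.000603) and without prednisolone library 1 (0.69, adjusted p = 0.0462). Of the 8 target genes, 7 had a negative log2 fold change with each drug, with a median of -0.56 for prednisolone and -0.43 for spironolactone, beside 52.2% and 50% of all tested genes with a negative value. In the filtered edgeR fit of all 9 libraries without a replicate block, no other gene of these 8 passed compared with vehicle. DESeq2 also called Tsc22d3 and Zbtb16 with prednisolone and Fkbp5, Klf9, and Per1 with spironolactone. Tsc22d3, which encodes the glucocorticoid-induced leucine zipper protein, was at 156 ± 10.4 CPM in vehicle, 121 ± 31.6 CPM in spironolactone, and 101 ± 11.5 CPM in prednisolone libraries (n = 3 each; edgeR adjusted p = 0.0675 for prednisolone). The log2 fold change of Tsc22d3 with prednisolone was called with DESeq2 (adjusted p = 0.00447), with a replicate block (0.0202), with vehicle and prednisolone alone (0.0205), without a filter, and without spironolactone libraries 1 (0.0221) or 3 (0.0150), and it was not called with limma-voom, RLE, the filter of 10 counts in every library, or the other left-out libraries. Fkbp5, the co-chaperone that opposes FKBP52, was at 63.8 ± 12.1, 40.1 ± 5.75, and 56.1 ± 5.2 CPM in the same order (edgeR adjusted p = 0.128 for spironolactone compared with vehicle). Sgk1, Klf9, and Ddit4 had log2 fold changes between -0.63 and -0.33 with each drug and did not pass in the filtered edgeR fit of all 9 libraries. Without a filter, edgeR called Per1, Tsc22d3, Zbtb16, Sgk1, and Ddit4 with prednisolone and Per1, Fkbp5, Klf9, Sgk1, and Errfi1 with spironolactone.

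Between the drugs, Zbtb16 and Errfi1 differed in opposite directions. Zbtb16, which encodes a zinc finger transcription factor, was at 9.27, 7.36, and 7.17 CPM in vehicle, 8.20, 7.30, and 9.09 CPM in spironolactone, and 5.62, 5.29, and 3.92 CPM in prednisolone libraries. It was higher with spironolactone than with prednisolone by 0.73 ± 0.19 on the log2 scale (edgeR adjusted p = 0.0377). This call was lost without any 1 of the spironolactone or prednisolone libraries (adjusted p up to 0.143), with a log2 fold change of 0.59 to 0.83 in these fits. Errfi1, an inhibitor of epidermal growth factor receptor signalling, was at 42.5, 45.1, and 36.8 CPM in vehicle, 28.5, 35.3, and 27.9 CPM in spironolactone, and 49.6, 49.8, and 39.0 CPM in prednisolone libraries. It was lower with spironolactone than with prednisolone by a log2 fold change of -0.59 ± 0.13 (edgeR adjusted p = 0.0179), a call lost without spironolactone library 3 and without prednisolone libraries 1 or 2 (adjusted p = 0.0802, 0.0840, and 0.0886), with log2 fold changes of -0.53, -0.54, and -0.54.

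In the list of steroid metabolism and transport, 10 of 13 genes were tested. Abcb1b, which encodes a P-glycoprotein that exports steroids and drugs from cells, was at 29.1, 28.0, and 26.3 CPM in vehicle, 25.3, 28.7, and 26.9 CPM in spironolactone, and 35.7, 37.4, and 37.4 CPM in prednisolone libraries. It rose with prednisolone by 0.41 ± 0.09 on the log2 scale (edgeR adjusted p = 0.0377) and was lower with spironolactone than with prednisolone (-0.45 ± 0.09, edgeR adjusted p = 0.0138). The first call was lost in 7 of 9 fits that left out a library, those without vehicle libraries 2 or 3, spironolactone libraries 2 or 3, or any prednisolone library, with adjusted p up to 0.162 and a log2 fold change no lower than 0.37. The second was lost in 3 of 9, without spironolactone library 3 or prednisolone libraries 2 or 3 (adjusted p up to 0.0642). With vehicle and prednisolone libraries fitted alone, the adjusted p of the first was 0.0572. H6pd, which supplies the cofactor of the reductase encoded by Hsd11b1, was at 93.1 ± 14.9, 91.3 ± 7.05, and 95 ± 7.53 CPM in vehicle, spironolactone, and prednisolone (n = 3 each). Hsd11b2, which encodes the enzyme that inactivates corticosterone, had 3 to 26 counts per library. The genes of corticosteroid synthesis Cyp11b1 and Cyp11b2 had 0 counts in all 9 libraries, and a count of 0 allows up to 3 counts, or 0.0953 CPM in the shallowest library.

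**Figure D5:**
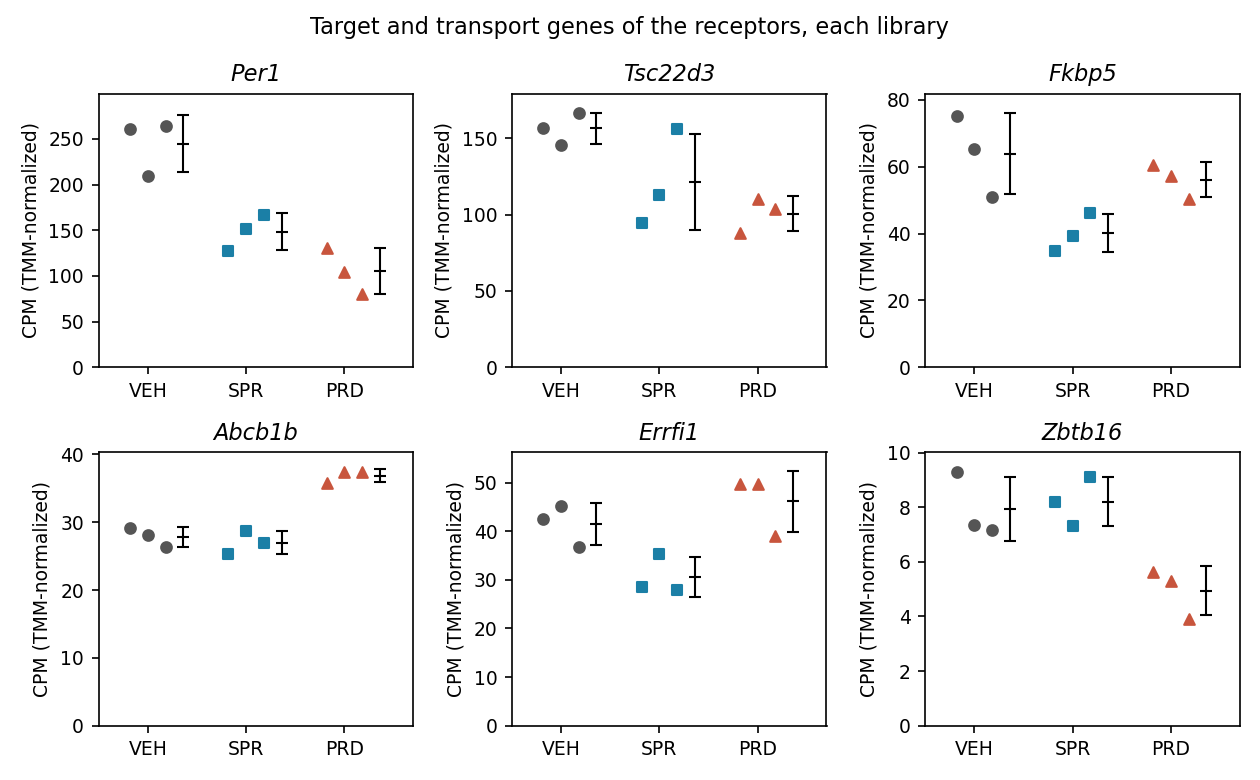
Levels (CPM, vertical axes from 0) of 6 target and transport genes in each library, with groups on the horizontal axis (VEH, vehicle; SPR, spironolactone; PRD, prednisolone) and bars for the mean ± SD of 3 libraries. Per1 lies lower in all treated libraries (80.3 to 167 CPM) than in vehicle (209 to 264 CPM), and Abcb1b lies higher in the prednisolone libraries (35.7 to 37.4 CPM) than in all others.

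Co-chaperones, other coactivators, corepressors, and other steroid receptors gave no calls in the filtered edgeR fit of all 9 libraries without a replicate block. Under other settings there were calls in these lists. DESeq2 called the coactivators Ncoa4 and Rbm39 with prednisolone, the co-chaperone Fkbp5 with spironolactone, and Med14 and Fkbp5 between the drugs. Fkbp5 stood on the target list as well, and limma-voom called none of these 4 genes. Between the drugs, edgeR called Med14 and Ncoa6 with a replicate block, with these 2 groups alone, without a filter, and without vehicle library 1, and Med14 without spironolactone library 1. It called Ncoa4 between the drugs without vehicle library 1. Fkbp5 was called between the drugs with 2 groups alone (edgeR adjusted p = 0.0148), without vehicle library 1 (0.0208) or 3 (0.0286), without both neutrophil-rich libraries (0.0290), and without a filter, where it was also called for spironolactone compared with vehicle. For the 15 tested co-chaperones, the median log2 fold change was -0.03 with prednisolone and -0.01 with spironolactone. Hsp90ab1, the constitutive heat shock protein 90, was at 1364 ± 75.9, 1402 ± 136, and 1513 ± 74.4 CPM in vehicle, spironolactone, and prednisolone (n = 3 each). Of 18 other coactivators, 16 had a negative log2 fold change with spironolactone (median -0.10), a count that fell to 12 without vehicle library 1 and to 14 without spironolactone library 3, and 0 passed. Of 11 tested corepressors, 10 were negative with spironolactone (median -0.10), and 9 were without either of these libraries. Of all tested genes, 50% had a negative value in this comparison. In the list of other steroid receptors, Esr1 and Esrra, an estrogen-related receptor gene, did not pass the test. Pgr had counts in 1 library, and Esr2 had 0 counts in all libraries.

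Summed endothelial, erythroid, and lymphocyte markers were higher in each spironolactone library than in each other library. Summed muscle markers were higher in each spironolactone and each prednisolone library than in each vehicle library. No marker of the 10 lists passed the edgeR test for spironolactone compared with vehicle, beside 0.0181% of all tested genes. Compared with prednisolone, 4 of 8 endothelial, 4 of 5 erythroid, 4 of 8 lymphocyte, and 0 of 9 muscle markers passed, beside 5.17% of all tested genes. Of the myeloid lists, 3 of 6 markers of F4/80 high macrophages (Lyve1, Cd163, and Gas6), 2 of 10 macrophage markers (C1qb and C1qc), the monocyte marker F13a1, and the dendritic cell marker Batf3 passed in this comparison. Lyve1, Cd163, and F13a1 were higher with prednisolone, and Gas6, C1qb, C1qc, and Batf3 were lower. The monocyte sum was 2638 to 3446 CPM in prednisolone libraries, above the 1798 to 2121 CPM of spironolactone libraries. Its members went in both directions, and the 2 groups did not overlap for 30.3% of all tested genes. Chil3, Vcan, and F13a1 were higher in each prednisolone library than in each spironolactone library, whereas Ly6c2 (77.6 to 181 against 223 to 266 CPM) and Plac8 (30.9 to 85.9 against 109 to 116 CPM) were lower and Ccr2 overlapped. The part of these markers in the differences of Abcb1b, Zbtb16, and Errfi1 between the drugs was not tested. With prednisolone compared with vehicle, the muscle marker Myh1 alone passed, beside 1.76% of all tested genes. In this comparison 10.4% of all tested genes were higher in each prednisolone library than in each vehicle library, and 9.27% were lower. Each prednisolone library was above each vehicle library for Timd4, Cd163, and Lyve1 (25.2 to 41.9 against 7.54 to 16.5 CPM). Chil3 (999 to 1259 against 290 to 774 CPM) and F13a1 were also higher there. Gas6 (59.1 to 63.8 against 69.9 to 119 CPM) was lower. The other F4/80 high and monocyte markers overlapped. The sum of the dendritic cell markers was 88.4 to 111 CPM with prednisolone, above the 68.2 to 82.3 CPM of vehicle. Of this list, Flt3, Zbtb46, and Cd209a were higher in each prednisolone library than in each vehicle library. Batf3 was lower, and Xcr1, Clec9a, and Ccr7 overlapped. The part of these markers in the differences of Per1 and Abcb1b from vehicle was not tested. All 8 endothelial markers had counts in every library, and their sum was 128 to 203 CPM with spironolactone, 56.9 to 97.4 CPM with vehicle, and 75.0 to 102 CPM with prednisolone. The sum of 5 erythroid markers was 186 to 305 CPM with spironolactone, 70.2 to 135 CPM with vehicle, and 37.1 to 79.7 CPM with prednisolone. The 9 skeletal muscle markers summed to 470 to 787 CPM, 248 to 376 CPM, and 379 to 572 CPM in the same order, and the 8 lymphocyte markers to 11.9 to 18.6 CPM, 5.23 to 9.5 CPM, and 4.80 to 7.93 CPM. The muscle marker Mylpf lacked counts in at least 1 library. The part of these 4 lists in the coregulator values of the spironolactone and prednisolone libraries was not tested.

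Some counts may include reads of a neighbouring gene, because exons of a gene on the opposite strand overlap those of Nr3c1 (Gm58395), Nr3c2 (Gm10649), Ncoa1 (4921501I09Rik), Ncoa2 (Gm29570), Ncoa3 (Gm75144 and Sulf2), and Ncor1 (Ttc19 and Pigl). The strand setting of the counting is not given in the sources used here, and without strand such reads cannot be told apart. No exon of another gene overlaps those of Hsd11b1, Fkbp4, or Nrip1 in the annotation.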

How the data were processed

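RNA-Seq was done on 9 libraries of sorted CD45+CD11b+ quadriceps cells, 3 per group. The authors aligned reads to mm39 and counted them per gene, and the deposited counts are whole numbers without normalization (HISAT2 2.2.1, HTSeq 0.11.3, and DESeq2 1.32.0, per the submitters' processing notes). The annotation release and strand setting are not given in the sources used here. Per the file headers, the tables of comparisons hold DESeq2 base means, log2 fold changes, standard errors, test statistics, p-values, and adjusted p-values, and these were not used. Lines that name no gene held 17.2% to 21.8% of the counted reads and were left out.

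Genes were filtered with filterByExpr (minimum count 10, minimum total 15; 16618 left) and tested in edgeR 4.0.16 (R 4.3.3; robust quasi-likelihood fit, TMM). A single fit held the 9 libraries, tests were two-sided, and p-values were adjusted by Benjamini-Hochberg across the tested genes, with calls at an adjusted p under 0.05. The biological coefficient of variation was 0.170. Levels are TMM-normalized CPM, and TPM used exon lengths of GENCODE on GRCm39. Likeness used log2 CPM (prior count 2) of genes with a mean of at least 1 CPM. Taken over all genes with enough counts, same-group libraries differed by more than sampling noise. The p-values set each difference against a spread between pools estimated from all 9 libraries and shared in part across genes.

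The 9 genes and all lists were chosen with earlier results of these data known. The text names the 9 genes, genes of the pathway lists that passed the test (up to 4 per list), and the 3 genes most like Nr3c1, Nr3c2, and Hsd11b1. Further genes of these lists are named with values and were chosen after their values were seen. Alternatives were RLE factors, DESeq2 1.42.0, limma-voom (limma 3.58.1), each pair of groups alone, 2 other filters, a replicate block, and fits without each library. A fit without both neutrophil-rich libraries was chosen after seeing the data. The results of some list genes are not reported here. Library numbers were not taken to pair libraries.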

Additional observations from a re-analysis of the deposited data

How the results depend on the processing

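The count of 0 called genes among the 9 was kept under all alternatives. Of their log2 fold changes, none passed the threshold under any alternative. Signs turned only for values near 0 or for Nr3c2 and Hsd11b1. Without both neutrophil-rich libraries the prednisolone values turned for Nr3c2 (0.26), Hsd11b1 (0.61), Ncoa1 (-0.021), Nrip1 (-0.069), and Ncor1 (-0.011), and the spironolactone values for Hsd11b1 (0.71) and Zbtb16 (-0.11). Hsd11b1 with spironolactone also turned with limma-voom (0.25) and with a replicate block (0.082). Leaving out each library gave ranges with both signs for prednisolone compared with vehicle in Nr3c1 (-0.051 to 0.035), Nr3c2 (-1.25 to 0.26), Hsd11b1 (-1.18 to 0.61), Ncoa1 (-0.022 to 0.11), Ncoa2 (-0.12 to 0.15), Nrip1 (-0.069 to 0.26), and Ncor1 (-0.049 to 0.17). The same held for spironolactone compared with vehicle in Hsd11b1 (-0.65 to 1.16), Nrip1 (-0.24 to 0.10), and Zbtb16 (-0.035 to 0.17), and between the drugs in Fkbp4 (-0.13 to 0.033) and Ncoa3 (-0.059 to 0.13). The filter of 10 counts in every library left out Nr3c2, as did the fit of vehicle and prednisolone alone, so that it has no value there.

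Over all genes, the counts of 293, 3, and 859 calls (prednisolone compared with vehicle, spironolactone compared with vehicle, spironolactone compared with prednisolone) became 738, 293, and 1739 with DESeq2, 1019, 528, and 1940 without a filter, and 120, 0, and 285 without both neutrophil-rich libraries. The second was 0 with limma-voom, and the third was 1598 with 2 groups alone. Without single libraries they ranged from 69 to 826, 0 to 34, and 232 to 1898. With a replicate block they were 336, 8, and 1082. Same-numbered libraries correlated at -0.04 to 0.15, with 0, 4, and 2 of 6 libraries correlating best with their own number. The 2 same-numbered correlations above 0.1 were both between spironolactone and vehicle. The numbers were not taken as pairs, and whether same-numbered libraries shared a batch was not tested. For the pathway genes, 2, 0, and 3 calls became 6, 3, and 6 with DESeq2, 6, 5, and 7 without a filter, and 1, 0, and 1 without both neutrophil-rich libraries, and ranged from 1 to 3, stayed at 0, and ranged from 0 to 7 without single libraries. The third was 5 with a replicate block and 6 with 2 groups alone. The cause of these differences was not tested. Nr3c2 had 2 to 30 counts and also varied beyond counting error within vehicle and spironolactone.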
